A study of Mus musculus with 17 samples.

Results

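CD8 T cells sorted from the core and from the rim of lung tumours of WT mice were compared by bulk RNA sequencing. The libraries titled WT were taken, which are 7 of the 17 in the series: 5 core-enriched libraries, from nodules visible by eye, and 2 rim-enriched libraries, from nodules within the lung parenchyma. The core libraries carry the identifiers F164, H719, H873, H876 and pool, and the rim libraries H874 and H877. The labels name no treatment, age or tumour model for these mice. No identifier occurs in both WT groups, so no core and rim library can be matched to each other. What the library titled pool holds is not given in the sources used here. Its Y-linked genes summed to 102 CPM (read counts scaled to a common library size, the unit used throughout) with Xist at 34.7 CPM, and those of the other 6 WT libraries summed to at most 0.175 CPM. The other 10 libraries come from mice lacking PD-L1 in endothelial cells (labelled KO, 6 core and 4 rim). The labels do not say which promoter drives that deletion. The KO libraries entered the fit and are set beside the WT change at the end. WT totals ran from 21986257 to 28517265 counts.

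CD8 T cells kill tumour cells after their T cell receptor recognises peptide on MHC class I. Cells that meet antigen for a long time pass from a stem-like state, marked by the transcription factor TCF1 (gene Tcf7), to an exhausted state with inhibitory receptors such as PD-1 (Pdcd1), LAG-3 and TIGIT and the transcription factor TOX. Activated T cells also divide and raise glycolysis, while recirculating T cells keep the receptor S1PR1, which guides them out of tissue into lymph and blood. CD69 opposes S1PR1 at the cell surface and is used as a mark of cells held in tissue.

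Many genes of cell division and glycolysis and 7 of 16 inhibitory receptors were higher in WT core. So were 4 of 16 effector cytokines and chemokines, among them Xcl1, and the co-stimulatory receptor Tnfrsf9, while 4 of 11 genes of tissue egress were lower. By edgeR, 422 of 20137 tested genes rose in core (2.1%) and 355 fell (1.76%) at an adjusted p under 0.05. The median log2 fold change (core over rim) was 1.59 among the genes that rose, -0.98 among those that fell and 0.03 over all tested genes. Rises were the larger ones: 167 of the 422 exceeded 2 on the log2 scale, against 7 of the 355 falls. All 5 core libraries lay above both rim libraries in 2041 of the 20137 tested genes (10.1%) and below both in 1949 (9.68%). Among called genes this held for 420 of the 422 rises and 345 of the 355 falls. Mcm6, a subunit of the replicative DNA helicase, and Klf3, a transcriptional repressor of the Krüppel-like family, had no overlap between the groups. Tcf7 and Gzmb (granzyme B) overlapped.

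The rim side rests on 2 libraries that differ from each other, and on 1 of them more than on the other. Without H874 the number of called genes dropped to 68, of which 50 were among the 777, and without H877 it was 687, of which 349 were. With 1 rim library left out, the one that remains is assumed to vary like the libraries of the other groups, here and wherever a value without H874 or H877 is given. Of all tested genes, 35.2% stood more than 2-fold apart between H874 and H877, and of the 777 called genes 12.6% did. That share was not taken for pairs of core libraries. The correlation of log2 CPM was 0.908 between the rim libraries, within the range of core pairs (0.902 to 0.939, median 0.925). Between core and rim libraries it was 0.884 to 0.922. Without core H719 or H873 the count was 500 or 411. A fit to the 7 WT libraries alone, which does not share the spread of the KO libraries, called 91 genes, 72 higher and 19 lower. By list, it called 11 mitosis genes higher (18 with all libraries), 8 replication genes (15), 6 glycolysis genes (10) and 1 inhibitory receptor (7). Effector cytokines and chemokines had 2 such calls (4), and 1 tissue egress gene was called lower (4). Of the 78 called genes among those singled out by rule, 52 lost their call in it.

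The libraries carried T cell transcripts throughout. Cd3e, a chain of the T cell receptor complex, measured 591 to 1359 CPM in core and 925 and 787 CPM in rim. Cd8a, a chain of the CD8 co-receptor, measured 1053, 1983, 1366, 878 and 1732 CPM in core F164, H719, H873, H876 and the pool, and 758 and 868 CPM in rim H874 and H877 (log2 fold change 0.79, SE 0.259, adjusted p 0.105). Its groups did not overlap, and it passed without core H876 (adjusted p 0.0297). None of the 10 tested T cell and CD8 identity markers was called by edgeR with all libraries, and their median was 0.13. By DESeq2 Cd8a was called (adjusted p 0.0335).

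Transcripts of other cells were present as well, and those of macrophages and some other cells leaned to core. In bulk libraries fewer cells of a type and less RNA per cell cannot be told apart. The 18 macrophage and monocyte markers summed to 6923, 2594, 5621, 7089 and 2531 CPM in core F164, H719, H873, H876 and the pool, and to 1579 and 3365 CPM in rim H874 and H877. On their mean log2 CPM both rim libraries (4.45 and 4.66) lay under every core library (5.28 to 6.95). C1qb and C1qc, subunits of complement C1q made by macrophages, were the 2 members called of 18, and 16 of the 18 changes were positive (median 1.80). By DESeq2, 7 of these markers were called higher. C1qb measured 266, 134, 346, 351 and 137 CPM in core and 28.9 and 16.3 CPM in rim (log2 fold change 3.45, SE 0.848, adjusted p 0.0328). The edgeR calls of C1qb and C1qc ended without a filter on low counts (adjusted p 0.0518 and 0.0526) and with WT libraries only (0.0535 and 0.0557). By limma voom neither gene was called (0.1005 and 0.132). Both calls ended without core H873 (adjusted p 0.0601 and 0.0617), rim H874 (0.224 and 0.242) or rim H877 (0.182 for both). No member of the other 10 lists of other cells was called by edgeR with all libraries, while DESeq2 called 2 CD4 and regulatory T cell markers and 1 lung epithelium and tumour marker as higher. Restricting edgeR to genes with a mean CPM of at least 1 called 1 of each, and leaving out H877 called 1 of the latter. The medians ran from -0.92 for B and plasma cells to 1.70 for fibroblasts. On mean log2 CPM both rim libraries also lay under every core library for neutrophil markers (core 3.58 to 4.95, rim 2.39 and 2.96). By little, the same held for CD4 and regulatory T cell markers (core 3.81 to 4.47, rim 2.96 and 3.76). It held by little for fibroblast and mural markers too (core -0.661 to 0.936, rim -0.724 and -1.26). Cd4 measured 13.6 to 94.7 CPM in core and 4.77 and 107 CPM in rim, and the MHC class II gene H2-Aa 373 to 3017 and 346 and 1368 CPM. A refit with the mean level of the macrophage markers as a covariate, chosen after the data were seen, called 184 genes, 171 of them among the 777. That covariate itself separates the groups, with both rim libraries below every core library, so a call can end under it with no change in the fold. Its value is given below for each group of genes.

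**Figure D1:**
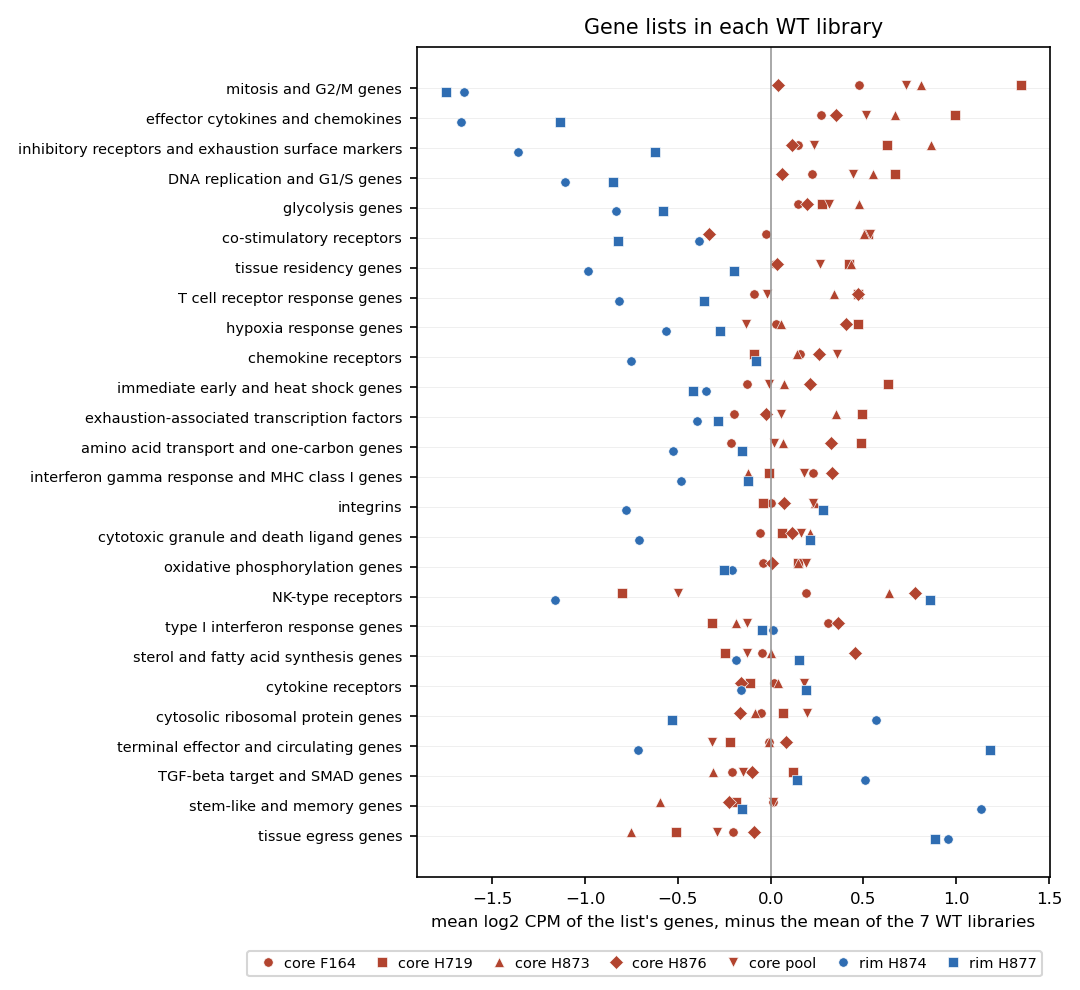
Mean log2 CPM of the genes of each list in each of the 7 WT libraries (x axis, minus the mean of the 7 libraries), with 5 core libraries in red and 2 rim libraries in blue. Both rim libraries lie left of every core library for mitosis, replication, glycolysis, inhibitory receptors and effector cytokines. The same holds, in part by little, for residency, co-stimulatory, T cell receptor response, exhaustion factor, hypoxia, oxidative phosphorylation and immediate early and heat shock lists. They lie right of every core library for tissue egress and, by little, for TGF-beta genes. The rim libraries part from each other for terminal effector and stem-like genes.

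Glycolytic enzymes were higher in core in most cases. Of 18 glycolysis genes, 10 rose in core and 0 fell, with a median of 0.84, and 17 of 18 changes were positive. The 10 were Tpi1, Slc16a3, Pgk1, Pgam1, Aldoa, Pkm, Pfkl, Eno1, Gpi1 and Ldha. They lie between glucose-6-phosphate isomerase (Gpi1) and lactate dehydrogenase (Ldha), with the lactate transporter MCT4 (Slc16a3). Gapdh, also on the list, was not among them. The glucose transporters Slc2a1 (-0.26) and Slc2a3 (0.22) were not called.

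Tpi1, triosephosphate isomerase (chromosome 6, 124810586 to 124814158, GRCm38.p6), measured 348, 445, 525.8, 342 and 458 CPM in core F164, H719, H873, H876 and the pool, and 73.1 and 84.5 CPM in rim H874 and H877. The lowest core library stood far above both rim libraries. Its log2 fold change was 2.43 (SE 0.307, adjusted p 0.00195), a ratio of group means of 5.38. Pgk1, phosphoglycerate kinase (chromosome X, 106187100 to 106203699), measured 216, 287, 332, 230 and 299 CPM in core and 96.3 and 85.5 CPM in rim (log2 fold change 1.59, SE 0.201, adjusted p 0.00195). Aldoa, the aldolase of muscle and lymphocytes (chromosome 7, 126795234 to 126800994), measured 850, 1053, 990, 854 and 1055 CPM in core and 423 and 433 CPM in rim (1.17, SE 0.143, adjusted p 0.00195). For these enzymes the 2 rim libraries nearly coincided, and the 5 core libraries kept to a narrow band. Pkm, pyruvate kinase (chromosome 9, 59656576 to 59679372), measured 1304, 1406, 1693, 1296 and 1527 CPM in core and 699 and 689 CPM in rim (1.06, SE 0.146, adjusted p 0.00253). Ldha measured 1491, 1807, 1966, 1686 and 1841 CPM in core and 1239 and 1106 CPM in rim (0.58, SE 0.132, adjusted p 0.0234). Without H874, 5 of the 10 calls ended (adjusted p 0.0559 to 0.192), and without H877 that of Ldha did (0.119). With the macrophage covariate 9 of the 10 calls held, Ldha being the exception (0.091). Glycolytic genes have processed pseudogenes, and how shared reads were counted is not given in the sources used here. Exons of Tpi1 overlap those of Spsb2 on the other strand, and Aldoa those of Fam57b. Over all 99 genes singled out by rule, 32 have such an overlap, and whether the counting used strand is not given in the sources used here.

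Promoter sequence was read for these genes because many rose together. In RefSeq's 250 bases upstream of each start (GRCm38.p6), the letters ACGTG, on either strand, occur in 9 of the 17 glycolysis genes with an entry (52.9%) and in 3200 of 14139 tested genes (22.6%). These letters are the core of the hypoxia response element, which HIF-1 binds, and they also lie inside the E-box CACGTG. Among all called genes with an entry, they occur in 25.9% of those higher in core and 27.2% of those lower. Mitosis and replication genes hold them in 31.6% and 30% of cases. Of the 10 glycolysis genes that rose, 6 hold these letters. The windows below show 4 of these, on the strand of the gene, with each match in capitals, at chrX:106186920-106186984 (plus strand), chr7:46845726-46845790 (plus), chr19:41911727-41911791 (plus) and chr7:126799346-126799410 (minus). A match describes the letters and not binding.
Pgk1: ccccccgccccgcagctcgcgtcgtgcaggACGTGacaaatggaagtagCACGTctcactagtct
Ldha: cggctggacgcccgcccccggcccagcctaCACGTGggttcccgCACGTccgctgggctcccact
Pgam1: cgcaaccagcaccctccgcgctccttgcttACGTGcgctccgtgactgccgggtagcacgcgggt
Aldoa: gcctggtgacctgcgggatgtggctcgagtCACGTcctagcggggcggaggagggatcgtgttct

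Hypoxia genes outside glycolysis did not move together. Of 19 tested, 2 rose (Bnip3 and Fam162a, mitochondrial proteins of the HIF response), 2 fell (the histone demethylase Kdm3a and the mitophagy receptor Bnip3l) and the median was 0.26. Hif1a itself measured 197, 641, 419, 136 and 734 CPM in core and 341 and 360 CPM in rim, so the groups overlapped (0.28, SE 0.47, adjusted p 0.821, and -0.02 by limma voom). Bnip3 measured 40.3 to 62.4 CPM in core and 20.6 and 12.6 CPM in rim (1.67, SE 0.42, adjusted p 0.0365). Kdm3a measured 115 to 164.1 CPM in core and 353 and 180 CPM in rim (-1.07, SE 0.199, adjusted p 0.0101), and its change without H874 was -0.50. Each of the 4 calls ended without H874 (adjusted p 0.151 to 0.346) and with the macrophage covariate (0.0691 to 0.159), under which the changes were 1.58 for Bnip3, 1.43 for Fam162a, -0.91 for Kdm3a and -0.38 for Bnip3l. Without H877 3 of them ended (0.192 to 0.233), without H719 3 (0.0635 to 0.0712), without H873 3 (0.0668 to 0.0988), without the pool 2 (0.0547 and 0.0597), and without F164 or H876 that of Bnip3l (0.0605 and 0.0716).

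Mitosis and G2/M genes were higher in every core library than in either rim library. Of 24 mitosis and G2/M genes, 18 rose and 0 fell, with a median of 2.45, and for all 24 the groups did not overlap. Ccnb2, cyclin B2 (chromosome 9, 70407689 to 70421554), measured 101, 184, 147, 87.5 and 122 CPM in core F164, H719, H873, H876 and the pool, and 16.9 and 21.6 CPM in rim H874 and H877 (log2 fold change 2.73, SE 0.379, adjusted p 0.00253). Cdk1, the kinase that starts mitosis (chromosome 10, 69335146 to 69352912), measured 59.9, 111, 83.3, 53.2 and 64.8 CPM in core and 8.93 and 14.8 CPM in rim (2.65, SE 0.453, adjusted p 0.0074). Core H719 was highest and H876 lowest for both genes. Mki67, which encodes the proliferation marker Ki-67 (chromosome 7, 135689784 to 135716450), measured 117, 254, 110, 91 and 155 CPM in core and 23 and 38 CPM in rim (2.25, SE 0.503, adjusted p 0.0226). Ube2c, a ubiquitin-conjugating enzyme of mitotic exit, had the largest change among the 18, 50.7 to 152 CPM in core against 9.24 and 6.62 CPM in rim (3.37, SE 0.592, adjusted p 0.00743). Aurka, Cenpa, Kif23, Cenpe, Ccna2 and Cenpf were not called. Without H874, 17 of the 18 calls ended (adjusted p 0.0778 to 0.314), and Ccnb2 kept its call. Without H877, 8 ended (0.0528 to 0.108), without H719 2 (0.0505 and 0.0522) and without H873 1 (0.0563). Under the macrophage covariate 10 of the 18 held.

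Of 24 DNA replication and G1/S genes, 15 rose and 0 fell, with a median of 1.40. Every core library lay above both rim libraries for 18 of the 24, and the groups overlapped for 6. Mcm6, of the replicative helicase, measured 448, 698, 586, 238 and 588 CPM in core and 161 and 202 CPM in rim (log2 fold change 1.49, SE 0.337, adjusted p 0.0234). Core H876 came nearest to the rim values. Mcm2 measured 217, 234, 243, 148 and 242 CPM in core and 79.1 and 94.9 CPM in rim (1.32, SE 0.219, adjusted p 0.00623). Tk1, thymidine kinase, measured 27.4 to 52.9 CPM in core and 4.2 and 7.09 CPM in rim (2.79, SE 0.468, adjusted p 0.00662). Chek1, the checkpoint kinase, measured 16, 23.6, 23.3, 8.61 and 11.3 CPM in core and 0.309 and 0.892 CPM in rim (4.78, SE 0.719, adjusted p 0.00409), the largest change among the 15. Pcna (0.09), Ccne1 (0.47), Ccne2 (0.12) and Cdt1 (-0.79) were not called. All 15 calls ended without H874 (adjusted p 0.0746 to 0.256), 8 without H877 (0.0534 to 0.162), and 1 each without H719 and without H873 (0.058 for both). Under that covariate 10 of the 15 held.

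The same upstream windows were searched for the motifs known from cell cycle promoters. TTTGAA, the core of the cell cycle genes homology region (CHR), lies on either strand in 7 of 19 mitosis genes with an entry (36.8%) and in 2083 of 14139 tested genes (14.7%). All 7 are among the 14 called mitosis genes with an entry. The E2F elements TTTGGCGC and TTTCGCGC lie in 3 of 20 replication genes (15%) and in 1.24% of the tested genes. Of the 13 called replication genes with an entry, 2 hold one. Shown are 3 mitosis genes, with CHR letters in capitals, at chr9:70421686-70421751, chr10:69352948-69353013 and chr7:135716460-135716525 (all minus strand), and 2 replication genes with E2F letters in capitals, at chr8:75109326-75109393 (plus) and chr1:128359778-128359845 (minus).
Ccnb2: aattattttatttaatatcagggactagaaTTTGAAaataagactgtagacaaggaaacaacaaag
Cdk1: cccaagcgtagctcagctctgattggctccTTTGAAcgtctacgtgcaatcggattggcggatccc
Mki67: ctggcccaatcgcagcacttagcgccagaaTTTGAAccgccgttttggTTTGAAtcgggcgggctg
Mcm5: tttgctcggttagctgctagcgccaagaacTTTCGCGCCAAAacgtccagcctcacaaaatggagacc
Mcm6: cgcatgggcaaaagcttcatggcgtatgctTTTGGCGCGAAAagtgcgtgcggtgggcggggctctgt

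Inhibitory receptors were higher in core as a group, with PD-1 itself short of the test. Of 16 tested, 7 rose, 1 fell and the median was 1.62. Those that rose were Lag3, Tigit, Cd160, Pvrig, Cd200r1, Cd101 and Cd38, and the one that fell was Vsir, which encodes VISTA (-0.61). In the fit to WT libraries alone 1 member was called higher and 0 lower. Lag3, a receptor for MHC class II (chromosome 6, 124904359 to 124912434), measured 64.4, 187, 133, 54.9 and 137 CPM in core F164, H719, H873, H876 and the pool, and 8.79 and 26.2 CPM in rim H874 and H877 (log2 fold change 2.72, SE 0.522, adjusted p 0.0113). Tigit, a receptor for CD155 (chromosome 16, 43626137 to 43665125), measured 131, 347, 362, 120 and 229 CPM in core and 61.1 and 64.1 CPM in rim (1.93, SE 0.461, adjusted p 0.03). Pvrig, a receptor of the same ligand family, measured 7.14, 9.92, 8.73, 6.15 and 8.24 CPM in core and 1.06 and 0.657 CPM in rim (3.22, SE 0.434, adjusted p 0.00253). Core F164 and H876 were the lowest core libraries for Lag3 and Tigit, and they are also the highest for the summed macrophage markers.

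Pdcd1 (chromosome 1, 94038305 to 94052553) measured 532, 1337, 1636, 414 and 1114 CPM in core F164, H719, H873, H876 and the pool, and 236 and 399 CPM in rim H874 and H877. Every core library lay above both rim libraries, H876 by little, and the spread within core was wide. Its log2 fold change was 1.66 (SE 0.546, adjusted p 0.103), and it passed without core H876 (0.0494) and by DESeq2 (0.0115). Havcr2, which encodes TIM-3, measured 106 to 250 CPM in core and 28 and 84 CPM in rim (1.58, SE 0.518, adjusted p 0.103). Entpd1, the ectonucleotidase CD39, measured 82.3 to 173 CPM in core and 25.2 and 79.2 CPM in rim (1.22, SE 0.37, adjusted p 0.0785). Both passed without rim H877 (adjusted p 0.0497 and 0.00925). Ctla4 measured 165 to 610 CPM in core and 157 and 163 CPM in rim (1.30, SE 0.508, adjusted p 0.182). Of the 8 called receptors, 7 calls ended without H874 (adjusted p 0.0782 to 0.261) and that of Pvrig did not. Without H877 2 ended (0.113 and 0.122), without H719 2 (0.0543 and 0.06), without H873 2 (0.0559 and 0.0874) and without F164 1 (0.0747). With the macrophage covariate 6 of the 8 held, Tigit and Vsir being the others, and the change of Tigit was 1.94 there (adjusted p 0.0874).

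Among 14 exhaustion-associated transcription factors, Tox and Tox2 rose, 0 fell and the median was 0.26. Tox (chromosome 4, 6686353 to 6991557) measured 214, 477, 399, 150 and 271 CPM in core and 126 and 76.5 CPM in rim (log2 fold change 1.58, SE 0.42, adjusted p 0.0462). Its groups did not overlap, with core H876 nearest to the rim. Tox2 measured 12.3, 33.7, 36.4, 6.93 and 19.4 CPM in core and 4.11 and 1.41 CPM in rim (2.98, SE 0.747, adjusted p 0.0362). Both calls ended without H719 (0.0849 and 0.0616), H873 (0.0844 and 0.0665), H874 (0.161 and 0.14) or H877 (0.248 and 0.197), and with the macrophage covariate (0.087 and 0.104), under which the changes were 1.75 and 2.86. That of Tox also ended without the pool (0.0569). Id2, Batf, Prdm1, Irf4, Nfatc1 and the 3 Nr4a genes, which follow T cell receptor signalling, were among the 12 not called.

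**Figure D2:**
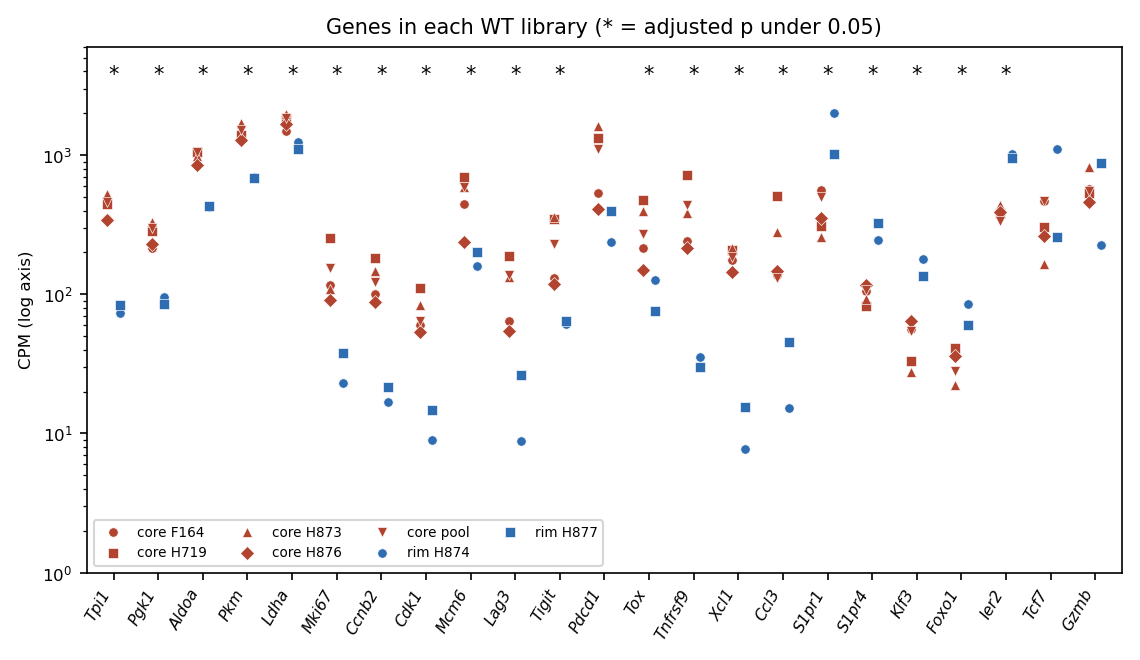
CPM (log axis) of 23 genes in the 5 core (red) and 2 rim (blue) libraries of WT mice, where a star marks an adjusted p under 0.05 by edgeR. Tpi1, Pgk1, Aldoa and Pkm form tight groups, Lag3, Tox and Pdcd1 spread widely within core, S1pr1, S1pr4, Klf3, Foxo1 and Ier2 are higher in both rim libraries, and Tcf7 and Gzmb part the 2 rim libraries from each other.

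Some secreted products and receptors of activated T cells rose in core, and most members of these lists did not pass. Of 16 effector cytokines and chemokines, 4 rose (Xcl1, Ccl3, Ccl1 and Spp1), 0 fell and the median was 1.31, with 15 of the 16 changes positive. Xcl1, the chemokine that attracts cross-presenting dendritic cells (chromosome 1, 164931644 to 164935522), measured 175, 209, 217, 144 and 185 CPM in core F164, H719, H873, H876 and the pool, and 7.78 and 15.5 CPM in rim H874 and H877. Its log2 fold change was 3.998 (SE 0.494, adjusted p 0.00195), a ratio of group means of 16. Ccl3, an inflammatory chemokine, measured 138, 511, 281, 146 and 132 CPM in core and 15.3 and 45.4 CPM in rim (2.99, SE 0.737, adjusted p 0.0332). No core library came near the rim for these chemokines. Ccl1, the ligand of CCR8, measured 39.3, 74.8, 71, 78.3 and 107 CPM in core and 2.39 and 0.469 CPM in rim (5.69, SE 1.01, adjusted p 0.0077). Ifng measured 141, 409, 201, 132 and 222 CPM in core and 50.4 and 138 CPM in rim, with H877 above core H876 (1.23, SE 0.456, adjusted p 0.155). Ccl4 measured 436 to 1033 CPM in core and 109 and 556 CPM in rim (1.11, SE 0.551, adjusted p 0.304), and passed without H877 (0.0346). The calls of Ccl3, Ccl1 and Spp1 ended without H874 (0.349, 0.0521 and 0.191), those of Ccl3 and Spp1 without H877 (0.0529 and 0.111), and that of Ccl3 without H719 (0.0512) or H873 (0.0588) and with the macrophage covariate (0.0886, change 2.99).

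Tnfrsf9, the co-stimulatory receptor 4-1BB (chromosome 4, 150920155 to 150946104), measured 241, 720, 383, 214 and 435 CPM in core F164, H719, H873, H876 and the pool, and 35.3 and 30.1 CPM in rim H874 and H877 (log2 fold change 3.61, SE 0.5, adjusted p 0.00253). Tnfrsf4, which encodes OX40, measured 55.1, 114, 109, 60.6 and 132 CPM in core and 9.32 and 8.4 CPM in rim (3.41, SE 0.512, adjusted p 0.00409). These were the 2 of 11 co-stimulatory receptors called, none fell, and the median was 0.34, with Cd28 (-0.50) and Icos (-0.31) negative and not called. The call of Tnfrsf4 ended without H874 (adjusted p 0.0541), and both held with the macrophage covariate.

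Of 18 T cell receptor response genes, Tnfrsf9, Rgs16, Il2ra and Crtam rose, 0 fell and the median was 0.36. Rgs16, a regulator of G protein signalling, measured 236, 809, 518, 215 and 488 CPM in core and 59.1 and 58.8 CPM in rim (log2 fold change 2.94, SE 0.553, adjusted p 0.0105). Il2ra, which encodes CD25, measured 36.8, 44.3, 40.1, 49.2 and 79.6 CPM in core and 8 and 15.3 CPM in rim (2.10, SE 0.478, adjusted p 0.024). Both were higher in every core library. The fast responders Egr1 (0.37), Nr4a1 (-0.74), Nr4a3 (0.31) and Cd69 (-0.09) were not called. The calls of Rgs16, Il2ra and Crtam ended without H874 (0.145, 0.287 and 0.0697), that of Rgs16 without H877 (0.0545) and that of Il2ra with the macrophage covariate (0.0816, change 1.98).

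Genes that let T cells leave tissue were lower in core. Of 11 tissue egress genes, 4 fell (S1pr1, S1pr4, Klf3 and Itgb7), 0 rose, and the median was -1.31 with all 11 changes negative. S1pr1, the sphingosine-1-phosphate receptor of egress (chromosome 3, 115710433 to 115715055), measured 564, 308, 258, 355 and 503 CPM in core F164, H719, H873, H876 and the pool, and 2012 and 1026 CPM in rim H874 and H877 (log2 fold change -1.93, SE 0.307, adjusted p 0.00492). Both rim libraries were higher than any core library, H874 by the wider margin. S1pr4, a related receptor (chromosome 10, 81497745 to 81500137), measured 105, 81.8, 92.4, 116 and 108 CPM in core and 244 and 325 CPM in rim (-1.50, SE 0.205, adjusted p 0.00253). Klf3 measured 55.9, 33.1, 27.7, 63.9 and 54.8 CPM in core and 180 and 136 CPM in rim (-1.75, SE 0.306, adjusted p 0.00743). Itgb7, the integrin chain of gut homing, measured 310 to 812 CPM in core and 1041 and 1183 CPM in rim (-1.08, SE 0.254, adjusted p 0.0284). Klf2, the transcription factor that drives S1pr1, measured 16.6, 32.5, 8.01, 25.8 and 14.4 CPM in core and 44.8 and 55.2 CPM in rim (-1.36, SE 0.389, adjusted p 0.0632). Its groups did not overlap, and it passed without core H719 (0.0321). Without H874 the calls of S1pr1, Klf3 and Itgb7 ended (0.131, 0.115 and 0.146), and that of Itgb7 also ended without H873 (0.0592) or H877 (0.12). With the macrophage covariate S1pr1 and S1pr4 held, and Klf3 and Itgb7 did not (0.0598 and 0.141), with changes of -1.50 and -0.87.

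Stem-like and memory genes leaned the same way, but mostly through rim H874. Of 15 tested, Foxo1 fell, 0 rose and the median was -0.999. Foxo1, a transcription factor of memory and quiescence, measured 41.4, 41, 22.1, 35.8 and 27.9 CPM in core and 84.9 and 60.2 CPM in rim (log2 fold change -1.11, SE 0.284, adjusted p 0.0398). Tcf7 (chromosome 11, 52246527 to 52283383) measured 467, 304, 166, 263 and 472 CPM in core and 1112 and 258 CPM in rim. H874 was above every core library and H877 within their range (-1.03, SE 0.442, adjusted p 0.223). Without H874 its change turned to 0.37, and without H877 it was -1.72 (adjusted p 0.0346). Il7r, the interleukin-7 receptor, measured 256, 188, 175, 259 and 416 CPM in core and 1130 and 387 CPM in rim (-1.55, SE 0.44, adjusted p 0.0613). It passed without the pool (0.0415) or without H877 (0.0261). Slamf6, a receptor of the SLAM family, measured 85.9 to 151 CPM in core and 281 and 117 CPM in rim and was not called (adjusted p 0.237). The change of Slamf6 without H874 was 0.09, and without H877 it passed (0.0497). The list's median was -0.04 without H874 and -1.45 without H877. The call of Foxo1 ended without H873 (0.0888), H876 (0.0578), the pool (0.0799), H874 (0.413) or H877 (0.0532) and with the macrophage covariate (0.112, change -1.18).

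The other rim library, H877, stood out for terminal effector genes. Of 15 tested, none was called by edgeR with all libraries, 1 was called lower without H874, and the median was -0.58, which became 0.82 without H877 and -1.19 without H874. Cx3cr1, the fractalkine receptor of circulating effectors, measured 84.9 to 149 CPM in core and 61.7 CPM in H874 against 362 CPM in H877, and its change was -0.98 with both rim libraries and 0.82 without H877. Klrg1 measured 14.5 to 94.7 CPM in core, 75.3 CPM in H874 and 284 CPM in H877. Gzma (granzyme A) measured 301 to 883 CPM in core, 297 CPM in H874 and 2259 CPM in H877, and S1pr5 4.99 to 16.9, 14.7 and 118 CPM. The mean log2 CPM of the list was 6.87 to 7.27 in core, 6.47 in H874 and 8.37 in H877, so the core libraries lay between the 2 rim libraries. For the stem-like list it was 6.21 to 6.82 in core, 7.94 in H874 and 6.65 in H877. Natural killer type receptors parted the rim libraries in the same direction, 3.41 in H874 and 5.43 in H877 against 3.77 to 5.35 in core, with 0 of 16 called.

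Cytotoxic genes did not separate core from rim. Of 14 tested, Tnfsf10, the death ligand TRAIL, rose, 0 fell and the median was 0.30. Tnfsf10 measured 142, 160, 160, 81.2 and 169 CPM in core and 42.9 and 46.5 CPM in rim (log2 fold change 1.67, SE 0.365, adjusted p 0.0205). It lost its call without H874 (0.203), without H877 (0.0731) and with the macrophage covariate (0.0782, change 1.57). Gzmb measured 568.3, 535, 823, 461 and 554 CPM in core and 227 and 877.4 CPM in rim (0.09, SE 0.396, adjusted p 0.95). Prf1, which encodes perforin, measured 211, 473, 262, 153 and 323 CPM in core and 115 and 365 CPM in rim (0.25, SE 0.405, adjusted p 0.816). For both the 2 rim libraries lay on either side of most core libraries, and the sign turned without H874 (-0.58 for Gzmb, -0.37 for Prf1). Gzmk measured 57.4 to 161 CPM in core and 46 and 82.3 CPM in rim (0.54, SE 0.451, adjusted p 0.57). A p short of the threshold does not show equal levels.

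None of 13 tissue residency genes was called by edgeR with all libraries (median 0.69, 11 positive). As higher in core, edgeR called 3 without H877, 1 without F164 and 2 among genes with a mean CPM of at least 1, DESeq2 called 3 and limma voom 1. Cxcr6, a chemokine receptor of tissue-resident cells, measured 756, 2011, 1440, 341 and 1477 CPM in core and 245 and 559 CPM in rim (log2 fold change 1.58, SE 0.598, adjusted p 0.165). Core H876 lay under rim H877, and the other 4 core libraries above both. Itgae, which encodes the integrin CD103, measured 155 to 407 CPM in core and 244 and 118 CPM in rim (0.53, SE 0.326, adjusted p 0.424). Cd69 measured 360 to 454 CPM in core and 544 and 321.7 CPM in rim (-0.09, SE 0.249, adjusted p 0.912), and its sign turned without H874 (0.34).

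Of 13 chemokine receptors, Ccr8 and Cxcr3 rose, 0 fell and the median was 0.37. Ccr8 measured 76.1, 188, 152, 46.3 and 147 CPM in core and 24.7 and 6.57 CPM in rim (log2 fold change 2.96, SE 0.645, adjusted p 0.0204), beside the rise of its ligand Ccl1. Cxcr3, a receptor for interferon-induced chemokines, measured 110 to 171 CPM in core and 44.6 and 98.3 CPM in rim (0.95, SE 0.248, adjusted p 0.0429), a change of 0.48 without H874 and 1.64 without H877. Ccr8 ended without H874 (0.0541) or H877 (0.113). Cxcr3 ended without H874 (0.493), F164 (0.0571), H719 (0.0635), H873 (0.0669) or the pool (0.064). Both ended with the macrophage covariate (0.0606 and 0.0856), with changes of 2.94 and 1.05.

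Interferon gamma receptor genes were lower in core. Ifngr1, the ligand-binding chain (chromosome 10, 19591949 to 19610229), measured 1074, 1096, 1168, 1191 and 1361 CPM in core F164, H719, H873, H876 and the pool, and 2072 and 2165 CPM in rim H874 and H877 (log2 fold change -0.85, SE 0.18, adjusted p 0.0182). Ifngr2, the signalling chain, measured 37.3, 49.6, 33.3, 37.7 and 37.9 CPM in core and 277 and 53.2 CPM in rim (-2.08, SE 0.468, adjusted p 0.0234). The fall of Ifngr1 was alike in both rim libraries, while that of Ifngr2 came mainly from H874 and was -0.45 without it (adjusted p 0.783). Irf1, a transcription factor of the interferon response, measured 267 to 577 CPM in core and 934 and 643 CPM in rim (-1.02, SE 0.258, adjusted p 0.0371). Psmb8 and Psmb9, subunits of the immunoproteasome, rose by 0.52 and 0.56 (adjusted p 0.0434 and 0.0362), so the 18 interferon gamma and MHC class I genes had 2 rises, 1 fall and a median of 0.36. Ifngr1 ended without H874 (0.134) or H877 (0.0763), and Ifngr2 without H873 (0.0554). Irf1, Psmb8 and Psmb9 all ended without H874 (0.401 to 0.437), without H719 (0.0546 to 0.0795) and with the macrophage covariate (0.141 to 0.205), as did Ifngr1 with the covariate (0.102). Irf1 also ended without F164 (0.0621), H873 (0.0821) or the pool (0.0604), Psmb8 without H873 (0.0594), H876 (0.0551) or the pool (0.0501), and Psmb9 without H877 (0.0544). Of 21 type I interferon response genes 1 rose, the exonuclease Isg20 (1.72, SE 0.314, adjusted p 0.00893), and the median was -0.01. It ended without H874 (0.0949) or H877 (0.0529).

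Other metabolic and stress lists had medians from -0.11 to 0.45. Of 20 oxidative phosphorylation genes, Atp5g1, a subunit of the ATP synthase ring, rose, and all 20 changes were positive with a median of 0.32. In 13 of the 20 every core library lay above both rim libraries, against 10.1% of all tested genes. Atp5g1 measured 74.2 to 88.2 CPM in core and 58.9 and 50.5 CPM in rim (log2 fold change 0.62, SE 0.146, adjusted p 0.0269). Shmt1, a serine hydroxymethyltransferase of one-carbon metabolism, measured 33.2, 32.8, 39.2, 27.6 and 38.2 CPM in core and 7.16 and 4.74 CPM in rim (2.52, SE 0.383, adjusted p 0.00413). Psat1, of serine synthesis, rose by 1.31 (adjusted p 0.00974), and the amino acid transporter Slc38a2 fell by 1.23 on the log2 scale (adjusted p 0.0181), which left the list of 17 with 2 rises, 1 fall and a median of 0.45. None of 18 sterol and fatty acid synthesis genes was called (median 0.03) and none of 21 ribosomal protein genes (median -0.11). The ribosomal median was 0.53 without H874 and -0.51 without H877. Of 17 immediate early and heat shock genes, 1 rose (Hspa1b) and 2 fell (Ier2 and Junb), with 14 changes positive and a median of 0.43. The immediate early gene Ier2 measured 379, 385, 439, 389 and 338 CPM in core and 1028 and 954 CPM in rim (-1.36, SE 0.167, adjusted p 0.00195), and Junb fell by 0.67 on the log2 scale (adjusted p 0.0403), while Fos (0.05) and Dusp1 (0.86) were not called. Hspa1b, a heat shock chaperone nearly identical to Hspa1a, measured 114 to 559 CPM in core and 29.6 and 10.1 CPM in rim (3.69, SE 0.971, adjusted p 0.044), and how reads were split between the pair is uncertain. Atp5g1 ended without H719, H873, H874 or H877 (0.0541, 0.0516, 0.148 and 0.174), Psat1 and Slc38a2 without H874 (0.161 and 0.321), Junb without F164, H876, the pool or H874 (0.0727, 0.0626, 0.068 and 0.603), and Hspa1b without F164, H719, H873, the pool, H874 or H877 (0.0544, 0.0709, 0.0572, 0.0601, 0.197 and 0.23). The change of Junb without H874 was -0.35. With the macrophage covariate Atp5g1, Slc38a2 and Junb ended (0.126, 0.126 and 0.184).

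Of 19 cytokine receptors, Il2ra rose, Ifngr1 fell and the median was -0.36. Among 15 integrins Itgb7 fell, 0 rose and the median was 0.27. Of 11 TGF-beta target and SMAD genes, Bambi fell, 0 rose and the median was -0.42. The marker lists of other cells had medians of 0.58 for CD4 and regulatory T cells, 0.91 for gamma-delta T cells, 0.55 for natural killer cells, 1.18 for neutrophils, 0.48 for dendritic cells and MHC class II, 1.67 for lung epithelium and tumour, 0.12 for endothelium and -0.01 for red blood cells.

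**Figure D3:**
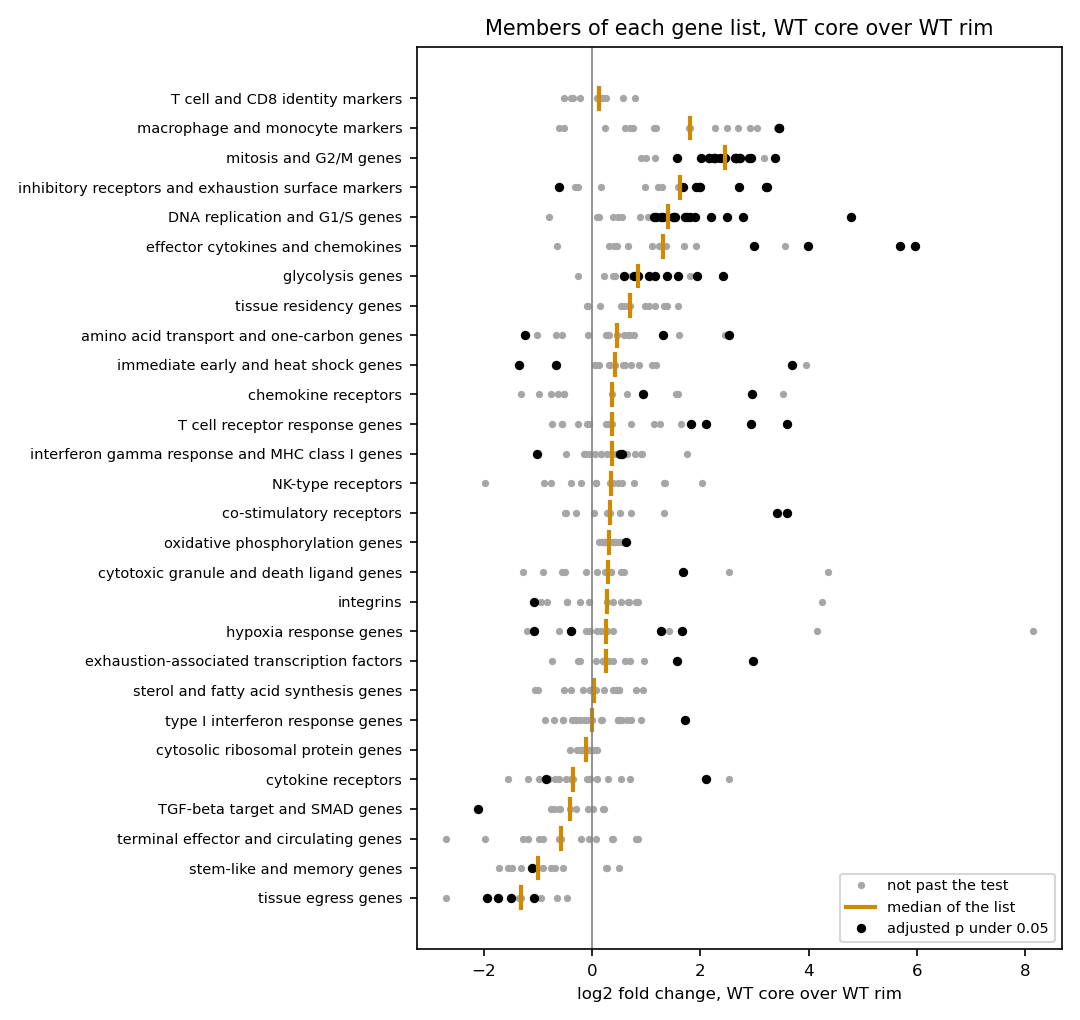
Log2 fold change of WT core over WT rim (x axis) for each tested gene of the 26 functional lists and 2 marker lists (rows), with genes at an adjusted p under 0.05 in black, others in grey and each list's median as an orange bar. Mitosis genes lie to the right throughout, tissue egress genes to the left, and oxidative phosphorylation and ribosomal genes close to 0.

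Most of the largest rises were of genes with few or no reads in rim, Spp1 and Ccl1 being exceptions. By rule these were the 10 called genes of named function with the largest rise and a mean of at least 5 CPM in core: Rgs8, Fcna, Gja5, Glp1r, Gbp2b, Ppp2r2c, Clgn, Slc17a6, Spp1 and Ccl1. Rgs8, a regulator of G protein signalling best known from neurons, measured 1.64, 27.4, 34.6, 0.679 and 18 CPM in core F164, H719, H873, H876 and the pool, and 0 in both rim libraries, which is at least 241-fold higher against a floor of 3 counts over the rim group (0.0683 CPM). Core F164 and H876 carried little of it. Fcna, the lectin ficolin A of macrophages, measured 3.86, 5.18, 11.1, 11.3 and 3.04 CPM in core and 0 in both rim libraries, at least 101-fold higher against the same floor. Glp1r, the receptor of the incretin GLP-1 (chromosome 17, 30901867 to 30936510), measured 8.56, 45.3, 30.4, 3.25 and 10.2 CPM in core and 0.133 and 0 CPM in rim (adjusted p 0.00409). Its rim level is a handful of reads, so no fold is given, nor for Gja5 and Ppp2r2c, which measured 5.3 to 25.2 and 1.27 to 10.6 CPM in core and at most 0.0939 CPM in rim. Clgn, an endoplasmic reticulum chaperone, measured 4.91 to 19.3 CPM in core and 0.133 and 0.0939 CPM in rim.

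Slc17a6, a vesicular glutamate transporter, measured 16.7, 26.6, 18.5, 7.54 and 40.1 CPM in core and 0.663 and 0 CPM in rim (log2 fold change 6.01, SE 1.2, adjusted p 0.0139), and its change was 5.05 to 12.13 when 1 library was left out, the upper end being without H874. Spp1, osteopontin, which macrophages and exhausted T cells both make, measured 718.8, 401, 253, 138 and 83.8 CPM in core and 6.05 and 4.13 CPM in rim (5.97, SE 1.29, adjusted p 0.0196). Gbp2b, a guanylate-binding protein with close paralogs, measured 12.6 to 26.9 CPM in core and 0 and 0.235 CPM in rim. Leaving out H874 ended the calls of Rgs8, Fcna, Gja5, Gbp2b, Ppp2r2c, Clgn, Spp1 and Ccl1 (adjusted p 0.0521 to 0.267), and leaving out H877 those of Rgs8, Fcna, Gja5 and Spp1 (0.0867 to 0.131). Fcna also ended without H719 (0.0522), without H873 (0.0594) and with the macrophage covariate (0.0821), as did Rgs8 with the covariate (0.0596). Spp1 held with that covariate. By limma voom the calls of all 10 largest rises ended (adjusted p 0.0703 to 0.302), Glp1r and Slc17a6 included (0.104 and 0.0813). In the edgeR fit to WT libraries only, those of Rgs8, Glp1r, Ppp2r2c, Slc17a6 and Spp1 ended (0.0603 to 0.144).

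The largest falls were smaller in size and depended more on 1 library. By the same rule they were Esm1, Bambi, Ankrd9, Ifngr2, Lncpint, Axin2, Rrad, Dstyk, S1pr1 and Gadd45a. Gadd45a, a stress-induced growth arrest gene, measured 11.8, 10.6, 23.2, 22.1 and 20.3 CPM in core and 74.5 and 57.1 CPM in rim (log2 fold change -1.90, SE 0.327, adjusted p 0.0074). Bambi, a decoy receptor of TGF-beta, measured 3.1 to 13.5 CPM in core and 34.8 and 24.4 CPM in rim (-2.11, SE 0.527, adjusted p 0.0355). Axin2, a feedback inhibitor and target of Wnt signalling, measured 0.686 to 3.79 CPM in core and 8.75 and 6.99 CPM in rim (-1.99, SE 0.518, adjusted p 0.0423). For these 3 genes both rim libraries were above every core library. Rrad, a small GTPase, measured 18.5 to 44.8 CPM in core and 153 and 70.8 CPM in rim (-1.96, SE 0.413, adjusted p 0.0179), and its change was -1.30 without H874. Esm1, which encodes the secreted proteoglycan endocan, measured 3.98 to 16.6 CPM in core, 14.3 CPM in H874 and 99 CPM in H877, so its groups overlapped (-2.58, adjusted p 0.0406), and its change was -0.58 without H877. Lncpint and Dstyk had changes of -0.95 and -1.24 without H874. All of the 10 calls except that of Esm1 ended without H874 (adjusted p 0.105 to 0.783). Without H877 those of Esm1 (0.737), Bambi (0.0571), Ankrd9 (0.22) and Axin2 (0.0968) ended. With the macrophage covariate S1pr1 kept its call and the other 9 did not (0.0515 to 0.245). Leaving out core F164, H719, H873, H876 or the pool each ended between 3 and 7 of the calls of Esm1, Bambi, Ankrd9, Ifngr2, Lncpint, Axin2 and Dstyk (adjusted p 0.0532 to 0.092).

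Of the 777 genes, 20 were called under every one of 17 alternative settings, 9 higher and 11 lower in core. The higher ones were Kntc1, Xcl1, Tnfrsf9, Ccnb2, Tpi1, Pgk1, Pgam1, Aldoa and Pkm. Of these, 5 are glycolytic enzymes. Kntc1, a kinetochore protein, measured 42.8, 46.3, 36.1, 24.3 and 37.6 CPM in core and 0.84 and 3.1 CPM in rim (log2 fold change 4.25, SE 0.549, adjusted p 0.0022). The lower ones were Slc20a1, Ccdc88c, Pdp1, Zfp53, Ier2, Crebrf, Arid5a, Mylip, S1pr4, Acss2 and Gm38733. Pdp1, the phosphatase that switches on pyruvate dehydrogenase, measured 33.8, 30.6, 34.8, 26.3 and 27 CPM in core and 69.6 and 79 CPM in rim (-1.28, SE 0.159, adjusted p 0.00195). Acss2, which makes acetyl-CoA from acetate, measured 72, 43, 44.6, 57.6 and 63.4 CPM in core and 140 and 199 CPM in rim (-1.59, SE 0.247, adjusted p 0.00436). Slc20a1, a phosphate transporter, measured 121, 126, 123, 127 and 128 CPM in core and 237 and 324 CPM in rim (-1.17, SE 0.168, adjusted p 0.0034). The 5 core libraries kept to a narrow range for Slc20a1 and Pdp1 and a wider one for Acss2. Arid5a, an RNA-binding protein that stabilises inflammatory transcripts, measured 336 to 519 CPM in core and 1102 and 1115 CPM in rim (-1.40, SE 0.218, adjusted p 0.00457). Only 10 of the 20 stand on one of the 38 lists.

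**Figure D4:**
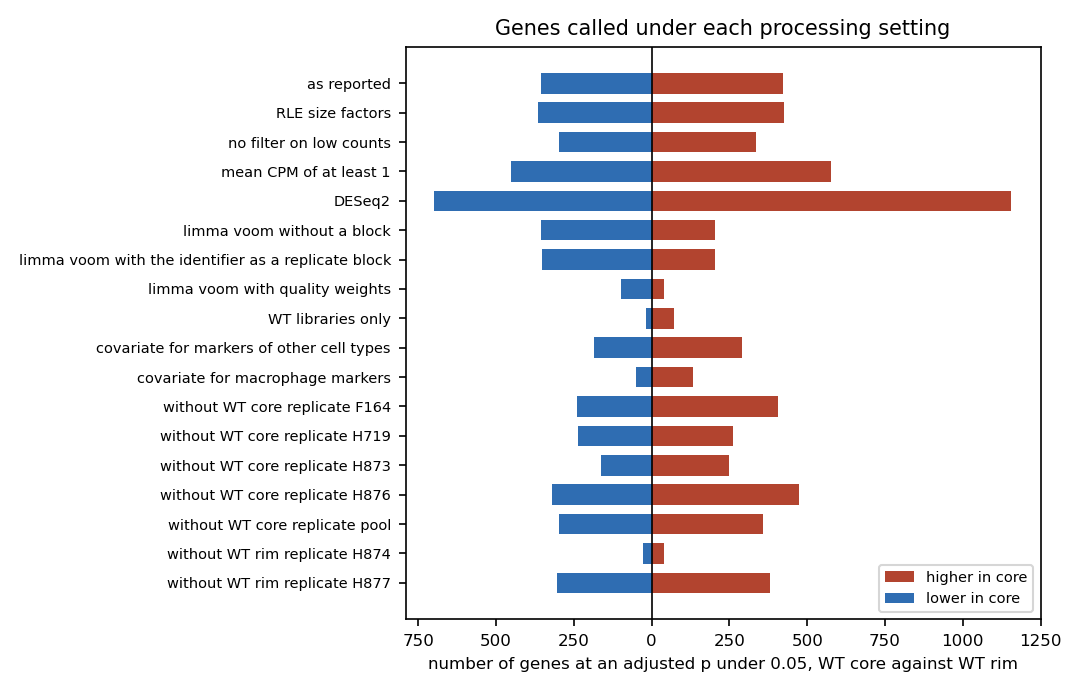
Number of genes at an adjusted p under 0.05 for WT core against WT rim (x axis) under each setting (rows), higher in core to the right in red and lower in core to the left in blue. The count falls to 40 and 28 without rim library H874, 72 and 19 with WT libraries only and 40 and 99 with limma voom quality weights, and reaches 1155 and 698 with DESeq2.

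The same contrast in KO mice, whose libraries share none with WT, gave changes that were mostly in the same direction. No gene was called there by edgeR, with 1600 of 20137 at an unadjusted p under 0.05 and a smallest adjusted p of 0.572, while DESeq2 called 33, limma voom 0, and limma voom with quality weights 2. Of the 422 genes that rose in WT core, 398 had a positive change in KO (94.3%, against 52.7% of all tested genes), with a median of 0.33. Of the 355 that fell, 349 had a negative change in KO (98.3%, against 47.0%), with a median of -0.37. An unadjusted p under 0.05 in the same direction was reached by 129 of the 422 (30.6%, against 3.43% of all genes) and 190 of the 355 (53.5%, against 4.52%). The genes were chosen on the WT values, which makes the WT change the larger by construction. Both contrasts also use the same spread for each gene, taken from 1 fit to all 17 libraries. A gene of small spread is thus favoured in both, so the shares at an unadjusted p under 0.05 are not independent of the WT calls.

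S1pr1 changed by -1.14 in KO (SE 0.249, unadjusted p 0.000286 by edgeR), Tpi1 by 0.88 (SE 0.21, p 0.000662), Pkm by 0.52 (SE 0.108, p 0.000188) and Ier2 by -0.61 (SE 0.134, p 0.000317). None of these passed adjustment. In KO the inhibitory receptors Lag3, Tigit and Pdcd1 changed by 0.34 (SE 0.344), 0.11 (SE 0.318) and -0.05 (SE 0.382), and the transcription factor Tox by 0.19 (SE 0.297), none of them called. The test of the difference between the WT and KO changes called 0 genes by edgeR, with 1547 at an unadjusted p under 0.05 and a smallest adjusted p of 0.0621, while DESeq2 called 159 and limma voom 0. Xcl1, Kntc1, Glp1r and Npl stood at that smallest adjusted p, and the differences of Xcl1 and Kntc1 were 3.42 and 3.67 on the log2 scale. Leaving out 1 WT library gave 5 calls without core H876, 2 without the pool, 5 without H874 and 14 without H877. By list, the KO medians were 0.65 for mitosis, 0.45 for replication, 0.36 for glycolysis, 0.26 for inhibitory receptors and -0.43 for tissue egress, beside 2.45, 1.40, 0.84, 1.62 and -1.31 in WT.

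**Figure D5:**
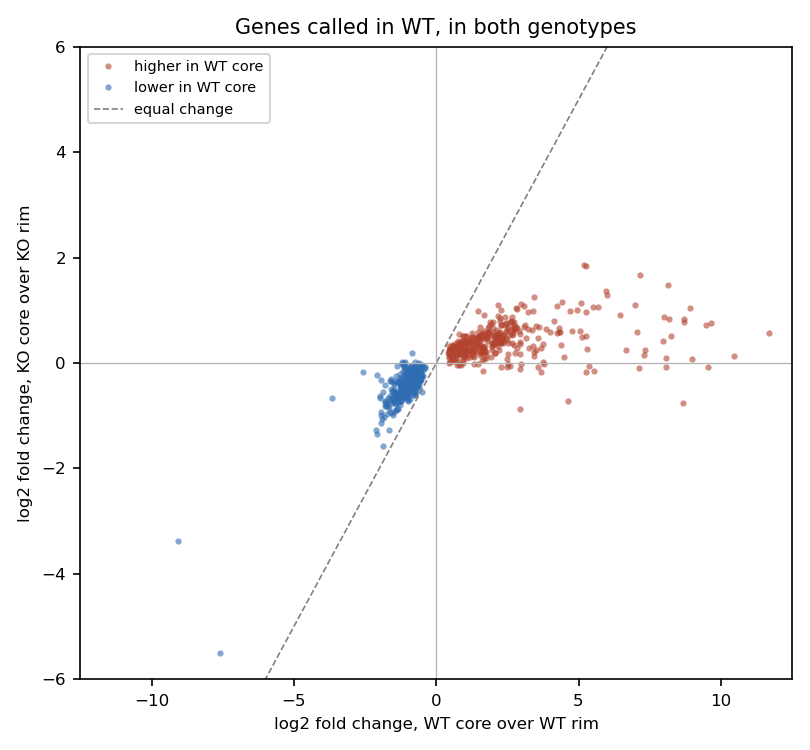
Log2 fold change of core over rim in WT (x axis) and in KO (y axis) for the 777 genes called in WT, with genes higher in WT core in red, lower in blue and equal change as a dashed line. Of the 777, 747 have the same sign in both, and nearly all lie nearer to 0 in KO.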

How the data were processed

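CD8 T cells were sorted by FACS from lung tumours, RNA was taken with a column kit and libraries were made with a TruSeq RNA kit, per the labels' protocols. The authors deposited raw counts per gene symbol in 1 table of 27240 genes, and its 17 columns were matched to the samples by the identifiers in their labels. No column of the table was left unused (0). Per the submitters' processing notes, which state neither role nor order, the tools were featureCounts, Subread 2.0.0, HISAT2, cutadapt 3.2 and Bowtie2 2.4.5, and the builds mm10 and GRCm38. Neither the strand setting nor the handling of reads shared between genes is stated there or in the labels.

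All 17 libraries were fitted in 1 model with 4 groups in edgeR 4.0.16 (R 4.3.3): genes were filtered by edgeR's expression filter, which kept 20137, scaled by TMM and tested with the robust quasi-likelihood F test on 13 residual degrees of freedom. Every adjusted p is Benjamini-Hochberg over the 20137 genes of that test unless another tool or a refit is named, and called means an adjusted p under 0.05. Refits that left out libraries or changed the filter chose their genes anew and adjusted over those. They held 19877 to 20004 genes without 1 core library, 17334 with WT libraries only and more than 20137 without 1 rim library. SE is the fold change divided by the square root of F. Log2 CPM used a prior count of 2. A floor of 3 counts, summed over a group, stands for a gene at 0 and covers counting error only. The labels do not tie the libraries of a group to separate mice, so p-values measure the spread between these libraries, which may be technical. No 2 libraries held identical values.

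Genes were named by rule: the 10 largest rises and 10 largest falls among called genes whose higher group averaged 5 CPM or more, leaving out predicted genes, clones, microRNAs and pseudogenes; up to 5 called members of each list with the smallest p; and 30 genes whatever their values. The genes called under every alternative, and further list members named with their values, were chosen after their values were seen. The comparison, the 26 functional lists, the 12 marker lists and the 30 genes were chosen with earlier results of these data known. Of the lists' genes, Cd244, Ero1l, Trac, Trbc1, Trbc2 and others without an entry were not analysed here. Alternatives used DESeq2 1.42.0 and limma 3.58.1 among others. The pipeline was tested on simulated data. Promoters and gene positions are from RefSeq and gene annotation of GRCm38.p6; 14139 tested genes had a promoter entry.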

Additional observations from a re-analysis of the deposited data

Results flagged for a closer look

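Among the 5 WT core libraries, 8 of the values examined (99 genes and 38 lists) had 1 library far from the other 4 by Dixon's criterion, and chance alone gives about 1 in 20. Gja5, a gap junction protein, was at 25.2 CPM in F164 and at 5.3 to 9.9 CPM in the others. Gbp2b was at 26.9 CPM in H876 and 12.6 to 16.8 CPM in the others. Ifngr2 was at 49.6 CPM in H719 and 33.3 to 37.9 CPM in the others. Il2ra was at 79.6 CPM in the pool and 36.8 to 49.2 CPM in the others, and Kdm3a at 164.1 CPM in the pool and 115 to 123 CPM in the others. Mcm2 was at 148 CPM in H876 and 217 to 243 CPM in the others. Atp5g1 was at 74.2 CPM in F164 and 84.3 to 88.2 CPM in the others. The mean log2 CPM of the CD4 and regulatory T cell markers was 3.81 in H876 and 4.3 to 4.47 in the others. In each of the 7 genes the library that stands apart still lay on the same side of both rim libraries as the other 4.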

How the results depend on the processing

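The 777 calls (422 higher, 355 lower) were 792 with RLE scaling, 634 without a filter, 1031 at a mean CPM of at least 1 and 558 by limma voom. They were 1853 (1155 and 698) by DESeq2, 139 (40 and 99) by limma voom with quality weights, 91 (72 and 19) with WT libraries only, 475 (289 and 186) with markers of other cell types as a covariate and 184 (134 and 50) with macrophage markers as one, the last chosen after seeing the data. limma voom gave 204 higher calls without and with the identifier as a replicate block. Leaving out 1 WT library gave 68 to 795 calls, 40 to 474 higher and 28 to 321 lower, lowest without H874. Of the calls, 36.6% were higher in core by limma voom, 28.8% with quality weights, 79.1% with WT libraries only and 72.8% with the macrophage covariate. Of the 777 genes, 1 changed sign without H874 and none of those tested did under the other alternatives, but the genes were chosen on these libraries, which nearly fixes the sign. The median of all genes was 0.03, and 0.23 without H877.

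In KO mice DESeq2 called 33 genes and limma voom 2 with the replicate block and 2 with quality weights, and 0 otherwise. The WT and KO difference had 4 calls without a filter, 159 by DESeq2 and 0 to 14 when 1 WT library was left out. The share of WT calls with the same sign in KO was 90.4% by DESeq2, 93.3% with the other-cell covariate, 93.5% with the macrophage covariate and 83.8% to 97.3% when 1 library was left out. Log2 fold changes turned for Tcf7 (0.37), Slamf6 (0.086), Cd69 (0.34), Gzmb (-0.58) and Prf1 (-0.37) without H874, Cx3cr1 (0.82) without H877, Gzmb (-0.047) without H873, Prf1 (-0.027) without H719, Cd69 with the other-cell (0.14) and macrophage (0.30) covariates, and Hif1a (-0.021) by limma voom without and with the replicate block. Over the libraries left out in turn, the other ends of the range were -1.72 for Tcf7, -1.16 for Slamf6, -0.40 for Cd69, 1.39 for Gzmb and 1.32 for Prf1, all without H877, and -1.75 for Cx3cr1 without H874. None of these genes was called with all libraries; the cause was not tested. The identifiers F322, F86 and O occur in KO core and KO rim and none in both WT groups; same-numbered libraries' deviations correlated by 0.0721, 0.0449 and 0.0818, so the block stands here only.

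With 2 rim libraries, a gene at a few reads in 1 of them has an imprecise fold change.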

Other observations

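Among abundant genes that passed the test, chosen after their values were seen, several are on none of the lists above. None of those described here was called under every alternative setting. Lcp1, the actin-bundling protein L-plastin, measured 3978, 3970, 4291, 3779 and 4605 CPM in core F164, H719, H873, H876 and the pool, and 2036 and 2943 CPM in rim H874 and H877 (log2 fold change 0.73, SE 0.172, adjusted p 0.0286 by edgeR). Fgl2, a secreted fibrinogen-like protein with immunosuppressive activity, measured 552, 835, 647, 510 and 574 CPM in core and 154 and 259 CPM in rim (1.60, SE 0.314, adjusted p 0.0134). Both were higher in every core library.

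On the rim side, Vps37b, an endosomal sorting protein, measured 725, 1134, 772, 928 and 939 CPM in core and 3420 and 1906 CPM in rim (log2 fold change -1.57, SE 0.341, adjusted p 0.0204 by edgeR). Tsc22d3, the glucocorticoid-induced protein GILZ, measured 593, 420, 700, 941 and 753 CPM in core and 2041 and 1210 CPM in rim (-1.25, SE 0.288, adjusted p 0.0252). Jak1, a kinase of cytokine receptors, measured 1218, 1246, 1033, 749 and 1506 CPM in core and 2149 and 2205 CPM in rim (-0.92, SE 0.209, adjusted p 0.0239). Both rim libraries were above every core library for these 3 genes, with H874 the higher for Vps37b and Tsc22d3.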
